A study of Homo sapiens with 6 samples.

Results

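The genes described here are 10 genes that carry fatty acid synthesis from its acetyl-CoA supply to the activated, elongated and desaturated product: ACLY, ACSS2, ACACA, FASN, ELOVL6, ELOVL5, SCD, FADS2, FADS1 and ACSL3. They were chosen by symbol, as a named enzyme of each step, with earlier results of these data known. All 10 were found among the 33900 genes of the table. The samples were LX-2 cells, an established human hepatic stellate cell line, labelled wild type and grown in serum-containing medium. Of the 6 samples, 3 received recombinant human Sema3C (rhSema3C), a secreted semaphorin, at 300 ng/ml for 48 h, and 3 received PBS for the same time. The comparison asks how rhSema3C changed these transcripts in stellate cells. LX-2 is 1 line, and the labels number the samples as biological replicates without saying whether they were separate cultures, so the p-values measure the spread between these samples.

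Fatty acids are built in the cytosol from acetyl-CoA, which comes from citrate through ATP citrate lyase (ACLY) or from acetate through acetyl-CoA synthetase (ACSS2). Acetyl-CoA carboxylase (ACACA) turns it into malonyl-CoA, and fatty acid synthase (FASN) assembles palmitate, which elongases lengthen and desaturases give double bonds at fixed positions of the chain. Many genes of this pathway are classical targets of the SREBP transcription factors, which are held back by INSIG proteins when sterols are plentiful, and stellate cells are known for the lipid droplets they lose on activation.

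In LX-2 cells, all 10 transcripts were higher with rhSema3C than with PBS. By edgeR's quasi-likelihood test with Benjamini-Hochberg adjustment over the 14178 genes with a mean of at least 0.5 FPKM (fragments scaled to transcript length and library size), 10 of the 10 genes passed an adjusted p of 0.05 as higher and 0 as lower. Of all genes tested, 31.7% were higher and 30.6% lower by the same rule, so a change in either direction was common in these libraries. A rise of over 2-fold that passed the test was less common, at 3.31% of all genes, and 4 of the 10 genes had one: ACSS2, ACSL3, FASN and SCD. The median log2 fold change was 0.93 for the 10 genes and 0.02 for all genes tested. Since the set was chosen with earlier results of these data known, its contrast with all genes carries no test. In each of the 10 genes, every rhSema3C sample lay above every PBS sample in normalised CPM (counts scaled to library size), as did 34.6% of all genes tested. The exact permutation test gave p = 0.1 for each of the 10, two-sided, which is the smallest value that 3 samples against 3 allow. In bulk RNA, a change in the share of cells that make a transcript and a change in transcript per cell cannot be told apart.

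**Figure D1:**
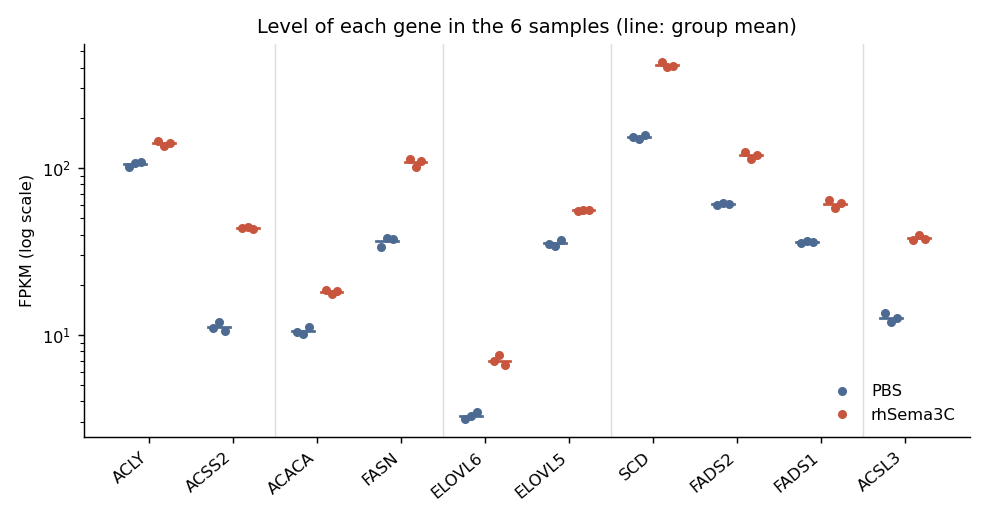
FPKM (log scale) of the 10 genes, in the order of the pathway, with 1 point per sample and a line at each group mean (n = 3). In every gene the 3 rhSema3C points lie above the 3 PBS points, with the narrowest gap for ACLY and the widest for ACSS2.

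Total counts on genes ranged from 68267808 to 89245585 per sample, and the smallest count of any of the 10 genes in any sample was 1764, for ELOVL6 in PBS replicate 3. Replicates of a group differed by more than counting noise at these depths. The counts carry no molecular identifiers. Transcripts of the mitochondrial genome took 4.75 to 5.42% of counts with PBS and 3.73 to 3.93% with rhSema3C, and with library sizes that leave out these genes the 10 genes gave the same counts, 10 higher, 0 lower and 4 past 2-fold, with a median of 0.93. Of 11 stellate cell and fibroblast markers 7 were tested, of which 5 were lower with rhSema3C and 0 higher. Over all genes tested the shares were 30.6% lower and 31.7% higher. The log2 fold changes of those lower were -0.96 for THY1, -0.78 for COL1A1, -0.56 for ACTA2, -0.41 for VIM and -0.36 for COL3A1. PDGFRB and LUM did not pass. The summed level of the 11 markers was 1172 to 1229 FPKM with PBS and 923.7 to 983.8 FPKM with rhSema3C. Most of that sum was VIM, the intermediate filament vimentin, with a mean of 1035 FPKM with PBS and 834.5 FPKM with rhSema3C. COL1A2, PDGFRA, DCN and DES were under 0.5 FPKM in every sample, while the line was labelled as hepatic stellate. The summed levels of other lists moved too, as follows, and their part in the results was not tested. Hepatocyte markers, of which 5 of 8 were in the table, summed to 2.63 to 3.18 FPKM with PBS and 3.52 to 4.16 FPKM with rhSema3C, and SERPINA1, a protease inhibitor, made up most of it (2.78 and 3.86 FPKM), with ALB, APOA1, TF and FGB under 0.5 FPKM in every sample. The 5 epithelial markers summed to 116.5 to 127.2 and 73.7 to 74.8 FPKM, carried by the keratins KRT18 (87.4 and 49.1 FPKM) and KRT8 (33.7 and 24.9 FPKM), with EPCAM and CDH1 under 0.5 FPKM throughout. The 4 endothelial markers summed to 0.797 to 1.05 and 1.26 to 1.67 FPKM, with VWF at 0.101 and 0.659 and KDR at 0.723 and 0.720 FPKM, and PECAM1 and CDH5 were under 0.5 FPKM. Blood cell markers, 4 of 5 in the table, summed to 94.4 to 103.1 and 66.8 to 72.6 FPKM, nearly all of it CD68, a lysosomal protein (93.4 and 66.9 FPKM), and PTPRC and CD3E were under 0.5 FPKM. Adipocyte markers stayed near 0: the 3 of 5 in the table, PLIN1, FABP4 and CIDEC, summed to at most 0.128 FPKM with PBS and 0.130 FPKM with rhSema3C.

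At the entry to the pathway, the acetate enzyme and the citrate enzyme differed in how far they moved. ACSS2 (ENSG00000131069, chromosome 20, 34872146 to 34927962, plus strand, GRCh38), which makes acetyl-CoA from acetate, had 11.1, 12.05 and 10.6 FPKM in PBS replicates 1 to 3 and 43.8, 44.1 and 43.1 FPKM in rhSema3C replicates 1 to 3. The groups were well apart, the lowest rhSema3C sample having 3.30 times the normalised CPM of the highest PBS sample. The fitted log2 fold change was 1.86 (SE 0.05, adjusted p = 8.9e-10 by edgeR), or 3.62-fold with a 95% interval of 3.37 to 3.89. This and the other 95% intervals use a normal approximation, which makes them too narrow for 3 samples a group. The rise of ACSS2 was the steepest of the 10 and ranked 60 by fold among the 14178 genes tested.

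ACLY (ENSG00000131473, chromosome 17, 41866917 to 41930542, minus strand), which cleaves citrate to acetyl-CoA, had 101, 107 and 109 FPKM in the PBS samples and 146, 135 and 142 FPKM in the rhSema3C samples. All 3 treated samples were higher, but the lowest exceeded the highest control only 1.16 times in normalised CPM. Its log2 fold change of 0.32 (SE 0.05, adjusted p = 1.1e-04 by edgeR) was the smallest of the 10, and the 95% interval of the fold ran from 1.17 to 1.32. The ratio of ACSS2 to ACLY within a sample, which no scaling between samples can alter, was 0.0969 to 0.113 in FPKM with PBS and 0.300 to 0.327 with rhSema3C. The groups did not overlap, and the log2 ratio was higher by 1.54 (exact permutation test, two-sided, p = 0.1, adjusted over the 6 ratios examined 0.15). ACLY nonetheless remained the more abundant transcript in every sample.

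The committed steps of synthesis followed the same direction with unequal size. FASN (ENSG00000169710, chromosome 17, 82078338 to 82098294, minus strand), the multifunctional enzyme that makes palmitate, had 33.8, 38.03 and 37.7 FPKM with PBS and 113, 101 and 110 FPKM with rhSema3C. The groups were far apart, at 2.47 times between the nearest samples in normalised CPM. The log2 fold change was 1.47 (SE 0.06, adjusted p = 8.1e-09 by edgeR), and FASN went from place 1246 to place 314 among the genes tested by mean FPKM. ACACA (ENSG00000278540, chromosome 17, 37084992 to 37406836, minus strand), which makes the malonyl-CoA that FASN consumes, had 10.4, 10.2 and 11.1 FPKM with PBS and 18.5, 17.7 and 18.3 FPKM with rhSema3C. It rose in all 3 treated samples, by 0.68 on the log2 scale (SE 0.04, adjusted p = 2.7e-07), or 1.60-fold. The FPKM ratio of ACACA to FASN was 0.267 to 0.307 with PBS and 0.163 to 0.174 with rhSema3C, without overlap, and the log2 ratio fell by 0.78 (exact permutation p = 0.1, adjusted 0.15).

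Both elongases of the set rose, from very different levels. ELOVL6 (ENSG00000170522, chromosome 4, 110045846 to 110198653, minus strand), which extends the saturated and monounsaturated products of synthesis, was the least abundant of the 10. It had 3.13, 3.26 and 3.46 FPKM with PBS and 6.98, 7.55 and 6.59 FPKM with rhSema3C. The log2 fold change was 1.00 (SE 0.07, adjusted p = 5.1e-07 by edgeR), a 1.99-fold rise whose 95% interval of 1.81 to 2.20 holds the 2-fold limit. ELOVL5 (ENSG00000012660, chromosome 6, 53267398 to 53349179, minus strand), which extends polyunsaturated chains, had 34.9, 34.3 and 37.0 FPKM with PBS. With rhSema3C it had 55.6, 56.3 and 56.0 FPKM, the tightest treated group of the 10 (SD 0.345 FPKM). ELOVL5 rose 1.47-fold (log2 0.56, SE 0.04, adjusted p = 6.2e-07), and the FPKM ratio of ELOVL6 to ELOVL5 went from 0.0898 to 0.0952 with PBS to 0.118 to 0.134 with rhSema3C (log2 difference 0.44, exact permutation p = 0.1, adjusted 0.15). Both rises were smaller, at 0.69 for ELOVL6 and 0.28 for ELOVL5 on the log2 scale, when trends with GC content and transcript length were removed, an alternative chosen after the data were seen.

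The desaturases held the most abundant transcript of the pathway. SCD (ENSG00000099194, chromosome 10, 100347233 to 100364826, plus strand), the Δ9 desaturase that forms oleate and palmitoleate, had 152, 149 and 157 FPKM with PBS and 433, 405 and 411 FPKM with rhSema3C. It rose 2.54-fold, with a 95% interval of 2.40 to 2.68 (log2 1.34, SE 0.04, adjusted p = 1.2e-09 by edgeR), and moved from place 209 to place 56 in mean FPKM. Its processed copy SCDP1, a pseudogene that can take reads of SCD, was listed with 0 to 14 counts with PBS and 44 to 64 with rhSema3C, at most 0.0329% of the SCD count. The FPKM ratio of SCD to FASN was 3.92 to 4.51 with PBS and 3.74 to 3.99 with rhSema3C, and here the groups overlapped (log2 difference -0.12, exact permutation p = 0.2, adjusted 0.24).

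FADS2 and FADS1, the Δ6 and Δ5 desaturases that make long polyunsaturated fatty acids, overlap on chromosome 11, where the span of FADS1 lies inside that of FADS2. FADS2 (ENSG00000134824, 61792980 to 61867354, plus strand) had 59.9, 61.4 and 60.7 FPKM with PBS and 124, 114 and 120 FPKM with rhSema3C, a log2 fold change of 0.87 (SE 0.04, adjusted p = 3.3e-08 by edgeR). FADS1 (ENSG00000149485, 61799627 to 61829318, minus strand) had 35.6, 36.7 and 36.2 FPKM with PBS and 64.3, 57.3 and 61.4 FPKM with rhSema3C, a log2 fold change of 0.65 (SE 0.05, adjusted p = 6.5e-07). Both rose in all treated samples, and in both genes replicate 1 was the highest and replicate 2 the lowest of the treated samples. The FPKM ratio of FADS1 to FADS2 was nearly constant with PBS, at 0.594 to 0.597, and lower with rhSema3C, at 0.503 to 0.519, a fall of 0.22 in the log2 ratio (exact permutation p = 0.1, adjusted 0.15). The 2 genes overlap on opposite strands over 29692 bases, of which 490 are exonic in both, against 10230 exonic bases of FADS1 and 11026 of FADS2. The sources used here do not give the strand setting of the counting, so reads from the 490 shared bases cannot be assigned. FADS2 also shares 49 exonic bases with FEN1, a DNA replication nuclease on the same strand, which moved the other way (log2 fold change -0.97, SE 0.04, adjusted p = 1.4e-08). GGT7, a gene of the gamma-glutamyltransferase family, overlaps the span of ACSS2 on the other strand by 711 bases and 0 exonic ones (log2 fold change 0.12, adjusted p = 0.045, a call that leaving out single samples ended), and ACSL3-AS1, which shares 102 exonic bases with ACSL3 on the other strand, had 0 to 13 counts. The other genes that overlap one of the 10 had at most 22 counts in any sample: AC244093, HMGB1P24, AC243654 and C17orf78 in ACACA, RPS16P5 and MIR5685 in ELOVL5, MIR1908 in FADS1 and FADS2, and ATG12P2 in ACSL3.

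ACSL3 (ENSG00000123983, chromosome 2, 222860942 to 222942222, plus strand), an acyl-CoA synthetase of the endoplasmic reticulum and lipid droplets that activates fatty acids, had 13.6, 11.9 and 12.6 FPKM with PBS and 36.9, 39.5 and 37.8 FPKM with rhSema3C. The nearest samples of the groups were 2.54 times apart in normalised CPM. The log2 fold change was 1.48 (SE 0.05, adjusted p = 3.5e-09 by edgeR), or 2.79-fold with a 95% interval of 2.60 to 3.00. The FPKM ratio of ACSL3 to FASN was 0.313 to 0.402 with PBS and 0.325 to 0.390 with rhSema3C, overlapping (log2 difference 0.02, exact permutation p = 0.9, adjusted 0.9). The rises were less alike once GC and length trends were removed, at 1.14 for ACSL3, 1.69 for FASN and 1.27 for SCD on the log2 scale.

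**Figure D2:**
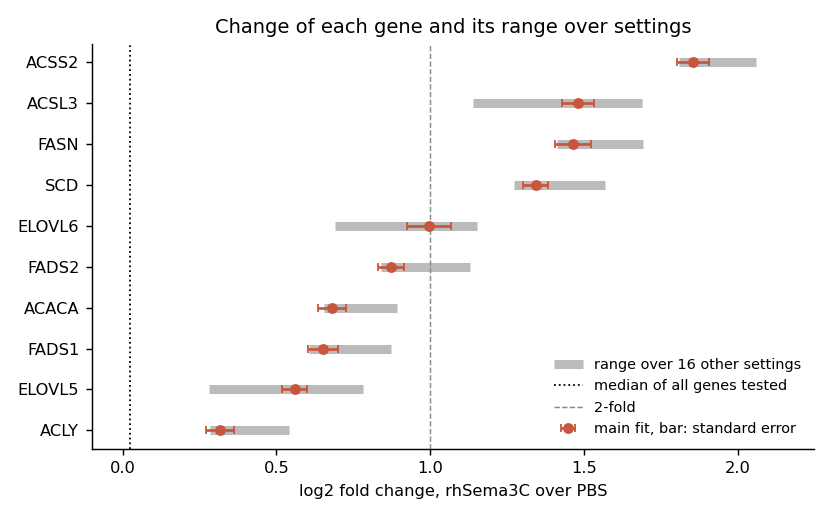
Log2 fold change of each gene, rhSema3C over PBS, with its standard error (red), and the range over 16 other settings (grey). The dotted line is the median of all genes tested, 0.02, and the dashed line is 2-fold, and every grey range lies to the right of the dotted line, from 0.28 to 0.54 for ACLY up to 1.81 to 2.06 for ACSS2.

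In the plot of changes with their ranges, ACSS2, ACSL3, FASN and SCD stayed past 2-fold in all 16 other settings, ELOVL6 and FADS2 ranged across the 2-fold line (0.69 to 1.15 and 0.84 to 1.13), and ACACA, FADS1, ELOVL5 and ACLY stayed under it. The adjusted p was at most 9.9e-04 for each of the 10 genes in all of these settings. The entry step, with ACSS2 and ACLY, held both the largest and the smallest rise of the 10.

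The plot of ratios within samples shows that in 4 of the 6 pairs the ratio did not overlap between groups. Among single genes, 34.6% of all tested had every rhSema3C sample above every PBS sample. The share of other gene pairs without overlap was not computed, so the 4 of 6 cannot be called particular to this pathway. None of the 6 ratios can pass 0.05 in an exact test of 3 samples against 3. The unequal changes also moved the order of levels. With PBS, mean FPKM ran from SCD over ACLY and FADS2 to FASN, FADS1 and ELOVL5, then ACSL3, ACSS2 and ACACA, and last ELOVL6. In that order FASN, FADS1 and ELOVL5 overlapped with their neighbours, as did ACSL3, ACSS2 and ACACA, so their places cannot be told apart. With rhSema3C the order was SCD, ACLY, FADS2, FASN, FADS1, ELOVL5, ACSS2, ACSL3, ACACA and ELOVL6, and no neighbours overlapped.

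In sum, the 10 transcripts went from 464.9 ± 9.68 FPKM (SD, n = 3) to 1009 ± 32.4 FPKM (SD, n = 3). Their share of all FPKM was 0.153, 0.161 and 0.164% in the PBS samples and 0.389, 0.364 and 0.378% in the rhSema3C samples. Within the sum, the share of SCD rose from 32.9% ± 0.646 to 41.3% ± 0.364 (SD, n = 3) and that of FASN from 7.85% ± 0.402 to 10.7% ± 0.306, while the share of ACLY went from 22.7% ± 0.462 to 14.0% ± 0.161. ELOVL6 kept 0.706% ± 0.0216 with PBS and 0.699% ± 0.0639 with rhSema3C. Sums and shares of FPKM carry no test here. FPKM values rose slightly more than the fitted folds, since their scaling differs: the median log2 fold change of all genes was 0.12 on log2(FPKM + 0.1) against 0.02 in the fit on counts.

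Set beside their relatives, several of the 10 took a larger part of their enzyme family. Among the 7 ELOVL elongases, ELOVL1, which builds very long saturated chains, was first with PBS at 52.3% ± 1.57 of the family's FPKM, against 33.8% ± 1.72 for ELOVL5 (SD, n = 3). With rhSema3C the order turned, with 45.5% ± 0.157 for ELOVL5 and 37.2% ± 0.815 for ELOVL1. Family shares were not recomputed without GC and length trends. In that setting the log2 fold change of ELOVL5 was 0.28, against 0.56 in the reported fit. ELOVL1 itself fell by 0.37 on the log2 scale (SE 0.04, adjusted p = 2.3e-05 by edgeR). The family's sum was 104.8 ± 1.43 FPKM with PBS and 123.0 ± 0.755 FPKM with rhSema3C.

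Among the 5 long-chain acyl-CoA synthetases of the ACSL family, ACSL4, which prefers arachidonate, was first with PBS (37.2% ± 0.633) and ACSL3 second (32.9% ± 1.21). With rhSema3C, ACSL3 held 52.0% ± 1.05 and ACSL4 28.6% ± 1.90 of a sum that went from 38.5 ± 1.14 to 73.2 ± 3.98 FPKM. ACSL4 itself was 0.45 higher on the log2 scale (SE 0.07, adjusted p = 2.1e-04), a call that did not pass when GC and length trends were removed. Of the FADS family, FADS2 went from 51.1% ± 0.254 to 59.0% ± 0.463, FADS1 from 30.5% ± 0.0839 to 30.1% ± 0.490, and FADS3 from 18.4% ± 0.329 to 10.9% ± 0.792. SCD already made up 94.3% ± 0.341 of the FPKM of SCD and SCD5, the other Δ9 desaturase, with PBS and 98.2% ± 0.0253 with rhSema3C. SCD5 itself was lower, at 9.22 ± 0.417 against 7.56 ± 0.372 FPKM (log2 fold change -0.39, SE 0.07, adjusted p = 3.9e-04), though it did not pass on log2(TPM + 1). The shares of relatives outside the naming rule were chosen after their values were seen.

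**Figure D3:**
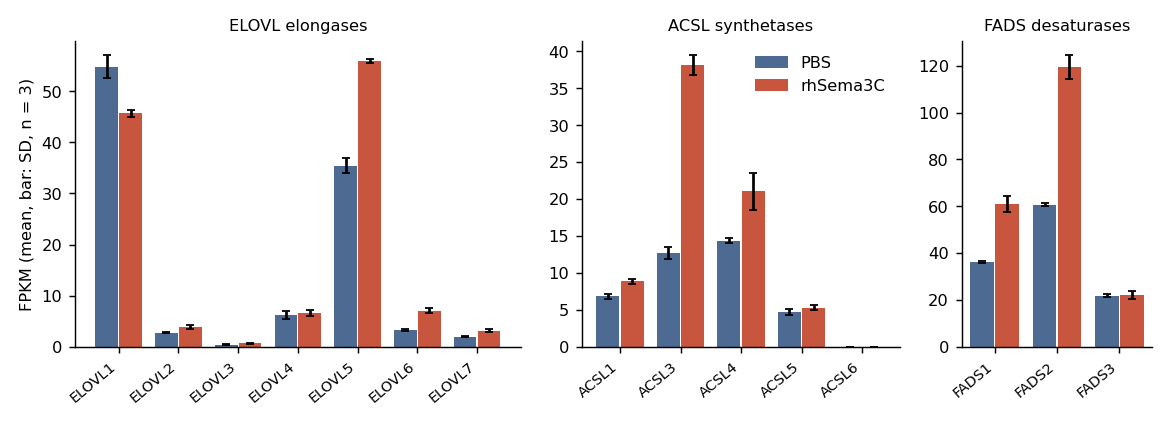
FPKM of the ELOVL, ACSL and FADS family members with PBS (blue) and rhSema3C (red), as bars of the mean with error bars of the SD (n = 3). ELOVL1 is the tallest elongase with PBS and ELOVL5 with rhSema3C, ACSL4 the tallest synthetase with PBS and ACSL3 with rhSema3C, and FADS2 the tallest desaturase in both groups.

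The bars by enzyme family show ELOVL5 rising beside a lower ELOVL1, and a larger rise of ACSL3 than of ACSL4. In 7 lists of other genes around these steps, 86 of 88 listed genes were in the table and 73 passed the level filter. Of those 73, 22 were higher, 27 lower and 24 did not pass the test, near the 31.7% and 30.6% of all genes. Their median log2 fold change was -0.01. With a rescaling to transcripts per unit of all transcripts (TPM, which sum to the same total in every sample), which raises the median of all genes to 0.23, the split was 38 higher and 17 lower, and that of all genes went from 4490 higher and 4339 lower to 6934 and 2428. Scaling by library size alone gave 29 and 25 in the lists and 5641 and 3433 over all genes. The list counts given next shift the same way, and on log2(TPM + 1) they were 9 higher and 1 lower for carbon and NADPH supply, 4 and 1 for mitochondrial synthesis, 6 and 2 for elongation, 2 and 2 for desaturation partners, 6 and 2 for activation, 5 and 7 for glycerolipid assembly, and 6 and 2 for regulators.

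Among 11 tested genes of carbon and NADPH supply, 5 were higher, 1 lower and 5 did not pass (median 0.13). IDH1 and ME1, cytosolic enzymes that make NADPH, rose by 0.98 (SE 0.04, 25.8 to 54.7 FPKM) and 0.96 (SE 0.06, 7.63 to 15.9 FPKM) on the log2 scale. CS, the mitochondrial citrate synthase, was the gene that fell, by 0.41 on the log2 scale (44.4 to 35.8 FPKM). SLC25A1, which exports citrate to the cytosol, had 68.9 FPKM with PBS and 74.4 FPKM with rhSema3C (log2 fold change 0.01, adjusted p = 0.88 by edgeR). PGD of the pentose phosphate pathway had 54.6 and 56.7 FPKM (log2 fold change -0.05, adjusted p = 0.33). The calls of both genes depended on the setting: SLC25A1 passed as higher in 6 of the 16 other settings, among them log2(TPM + 1) at 0.24, and PGD passed as higher on log2(TPM + 1) at 0.18 and without GC and length trends at 0.092.

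Mitochondrial fatty acid synthesis, a separate system that serves lipoate and respiratory complex assembly, gave 2 higher, 2 lower and 2 not passed of 6 tested genes (median 0.16), and 3 higher and 1 lower with library size alone. OXSM, its condensing enzyme, and AASDHPPT, which attaches the carrier's prosthetic group, were higher by 0.48 (SE 0.11) and 0.28 (SE 0.10) on the log2 scale, and AASDHPPT was at -0.05 once GC and length trends were removed and did not pass without PBS replicate 2, PBS replicate 3 or rhSema3C replicate 2. MCAT, the malonyl transferase, fell by 0.89 (SE 0.09), and NDUFAB1, the acyl carrier protein, fell by 0.24 (SE 0.06). The call of NDUFAB1 was lost with library size alone (-0.13), with a filter at 5 FPKM (-0.14) and on log2(TPM + 1) (-0.014).

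The microsomal elongation cycle gave 3 higher, 2 lower and 5 not passed of 10 tested (median 0.04), and 2 higher and 5 lower without GC and length trends. HSD17B12, the ketoacyl reductase that serves all elongases, rose by 0.63 (SE 0.06) and ELOVL7 by 0.59 (SE 0.10), while TECR, the last reductase of the cycle, fell by 0.42 (SE 0.04) on the log2 scale. Desaturation partners gave 2 higher, 5 lower and 1 not passed of 8 tested (median -0.32). The electron carriers CYB5A and CYB5B were higher by 0.40 (SE 0.06) and 0.18 (SE 0.04), although removing GC and length trends ended the first call and turned the second to -0.11. CYB5R1 and CYB5R3, cytochrome b5 reductases, fell by 0.49 (SE 0.06) and 0.29 (SE 0.04), and DEGS1, the desaturase of ceramide synthesis, fell by 0.47 (SE 0.05). The fall of CYB5R3 did not pass on log2(TPM + 1) or without GC and length trends.

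Of 9 tested genes of fatty acid activation, 2 were higher, 3 lower and 4 did not pass (median 0.07). ACSL4 and ACSL1 (log2 fold change 0.28, SE 0.06) were the higher ones, neither of which passed without GC and length trends, and SLC27A4, a fatty acid transport protein, fell by 0.75 (SE 0.06) and ACOT7, a thioesterase, by 0.49 (SE 0.05). Glycerolipid assembly, which uses the products of the pathway, gave 3 higher, 8 lower and 5 not passed of 16 (median -0.22). LPIN1, a phosphatidate phosphatase, rose by 0.94 (SE 0.05, 4.37 to 8.99 FPKM) and PLIN2, a lipid droplet coat protein, by 0.27 (SE 0.07). PLIN3, another coat protein, fell by 0.93 (SE 0.04, 57.0 to 32.0 FPKM), the monoglyceride lipase MGLL fell by 0.60 (SE 0.04), and AGPAT2, which makes phosphatidate, fell by 0.55 (SE 0.05).

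Regulators of lipogenesis gave 5 higher, 6 lower and 2 not passed of 13 tested (median -0.05). INSIG1, which retains SREBP in the endoplasmic reticulum and is itself an SREBP target, went from 47.0 ± 2.43 to 172 ± 2.22 FPKM (log2 fold change 1.77, SE 0.05, adjusted p = 6.2e-10 by edgeR), and INSIG2 rose by 1.29 (SE 0.12). SREBF2, which encodes the factor linked mainly to sterol synthesis, rose by 0.32 (SE 0.05, 43.6 to 58.5 FPKM). SREBF1, which encodes the factor linked mainly to fatty acid synthesis and was chosen after its values were seen, had 5.50 ± 0.485 FPKM with PBS and 10.7 ± 0.506 FPKM with rhSema3C (log2 fold change 0.86, SE 0.07, adjusted p = 1.1e-06). MLXIP, a glucose-responsive factor, fell by 0.55 (SE 0.07) and RXRA, the partner of nuclear receptors, by 0.50 (SE 0.07). In the 7 lists, 13 genes were below the level filter, among them MLXIPL and THRSP, and FADS6 and SLC27A6 were not analysed here.

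The plot of the 10 genes and the 7 lists shows genes on both sides of 0 in each list and on the upper side alone in the set of 10. Both the set and the lists were chosen with earlier results of these data known, so this contrast carries no test. Relatives of the 10 stand in the lists, among them ELOVL1 and SCD5, which fell, and ELOVL7 and ACSL4, which rose. The table also annotates genes to pathways. Outside the 10 genes, KEGG fatty acid biosynthesis had 3 higher, 1 lower and 2 not passed of 6 tested, KEGG fatty acid elongation 4, 8 and 10 of 22, and KEGG biosynthesis of unsaturated fatty acids 5, 7 and 7 of 19. Their medians were 0.17, -0.00 and -0.02. With the 10 genes counted in, KEGG elongation had 6 higher and 8 lower, 9 and 6 with library size alone and 14 and 5 on log2(TPM + 1), while unsaturated fatty acids had 10 and 7, 14 and 5 on log2(TPM + 1), and 7 and 10 without GC and length trends. The Reactome set for gene activation by SREBF, chosen after the annotation was seen, holds ACACA, FASN, SCD and ELOVL6. It is not a list of targets alone, since it also holds SREBF1, SREBF2 and cofactors such as NFYA, SP1 and NCOA1. Of its 38 other tested genes 24 were higher, 6 lower and 8 did not pass, with 7 past 2-fold and a median of 0.27. Over all genes tested, 31.7% were higher, 30.6% lower and 3.31% higher past 2-fold. With ACACA, FASN, SCD and ELOVL6 counted in, the set had 28 higher and 6 lower, and 20 and 4 without GC and length trends. Reactome fatty acyl-CoA biosynthesis, chosen likewise, holds 7 of the 10 genes, and its 22 other tested genes gave 5 higher, 4 lower and 13 not passed with a median of 0.03.

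The genes whose profile over the 6 samples was nearest to the mean profile of the 10, as the distance between log2 CPM deviations from each gene's own mean, were SEC31B (0.058), SMYD3 (0.086), CBS (0.090), ZNF419 (0.098) and IDH1 (0.102). Their log2 fold changes of 1.02, 1.09, 0.99, 1.00 and 0.98 follow from that choice and carry no test.

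Promoter sequence was examined because many of the 10 genes rose together. RefSeq sequences on GRCh38.p14, from 250 bases before to 50 after a transcription start, were found for 9 of the 10 genes (all but FASN) at 14 starts, some of which overlap. Both strands were searched for the letters CCAAT, the box bound by NF-Y, for GGGCGG, the box bound by Sp1, and for TCACNCCAC, a form of the sterol regulatory element. CCAAT was found in 7 of the 9 genes and 9 of the 14 windows (ACACA, ACLY, ACSL3, ACSS2, ELOVL5, FADS2 and SCD), beside 39.7% of all genes and 34.6% of all 35116 windows. GGGCGG was found in 8 of the 9 genes and 11 windows, all but ELOVL5, beside 48.3% of genes and 45.0% of windows, and TCACNCCAC in 0 of the 9, beside 1.39% of genes. A motif this rare would be absent from most sets of 9 genes. Other forms of the sterol regulatory element were not searched, so the 0 does not show that these promoters lack one. Genes with several starts have more windows in which to hold a motif, and these matches are a description of letters. The 250 bases before the start are shown for SCD, ACSS2 and ACSL3, the genes past 2-fold with an entry, as chr10:100346983-100347232, chr20:34874739-34874988 (the first of 2 listed starts, which lies inside the gene span of the table) and chr2:222860786-222861035, all on the plus strand and 5′ to 3′. Capitals mark CCAAT or, on the other strand, ATTGG.
SCD: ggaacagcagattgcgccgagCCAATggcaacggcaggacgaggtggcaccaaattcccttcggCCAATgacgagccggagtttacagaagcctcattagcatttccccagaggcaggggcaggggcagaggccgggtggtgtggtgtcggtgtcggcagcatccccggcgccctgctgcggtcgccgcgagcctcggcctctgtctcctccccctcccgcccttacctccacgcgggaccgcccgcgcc
ACSS2: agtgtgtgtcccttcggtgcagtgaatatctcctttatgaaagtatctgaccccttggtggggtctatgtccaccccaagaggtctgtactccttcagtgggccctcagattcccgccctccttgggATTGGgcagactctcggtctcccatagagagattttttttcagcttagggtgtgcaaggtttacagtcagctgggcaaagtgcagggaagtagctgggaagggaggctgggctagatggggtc
ACSL3: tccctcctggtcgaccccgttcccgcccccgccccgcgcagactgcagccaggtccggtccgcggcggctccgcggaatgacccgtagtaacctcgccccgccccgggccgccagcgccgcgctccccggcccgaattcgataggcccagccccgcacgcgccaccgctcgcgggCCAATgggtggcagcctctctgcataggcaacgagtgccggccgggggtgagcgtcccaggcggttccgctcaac
SCD held the box at 2 places, from -229 and from -186 relative to the start, ACSS2 at 1 from -123, and ACSL3 at 1 from -75. SCD and ACSL3 match on the strand of the gene and ACSS2 on the other strand. The window of the other listed ACSS2 start, not shown, held GGGCGG but no CCAAT. In FADS2 the only CCAAT lay after the start, from 5 to 9.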

How the data were processed

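mRNA sequencing libraries of 6 LX-2 samples were compared, 3 per group, with groups and replicate numbers taken from the labels. The table the authors deposited gives each gene a raw count in every sample. It also holds FPKM values, which the authors corrected for library size and the length of the transcript. The study's methods name Cufflinks and cuffmerge; the aligner, genome build, counting tool and use of strand are not given in the sources used here. Gene spans in the table lie at those of GENCODE 29 on GRCh38. Since its test needs reads, edgeR's quasi-likelihood test was run on the deposited counts with TMM factors, for genes whose mean FPKM reached 0.5, with Benjamini-Hochberg adjustment over all 14178. Normalised CPM are counts divided by the TMM-scaled library size. FPKM describe levels between genes and ratios within a sample. A 2-fold change was the study's limit.

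Replicates of a group differed by more than counting noise (chi-square per degree of freedom 12.6 to 20.4). Deviations of same-numbered samples correlated at -0.004, 0.058 and -0.027, and those of differently numbered samples at -0.070 to 0.071. No shared deviation by number was seen, and the labels do not say whether the samples were paired. The genes, lists and tests were chosen with earlier results of these data known. Named genes were the 10 genes; of each list, the 2 highest and 2 lowest fold changes past the test and the 2 of highest level; the 5 nearest profiles; and genes overlapping one of the 10. The tests were tried on simulated counts. Alternatives covered DESeq2, library size scaling, removal of mitochondrial genes from library sizes, limma on log2(FPKM + 1), log2(FPKM + 0.1) and log2(TPM + 1), the filter, a replicate block, each sample left out and, added after the data were seen, removal of GC content and length trends by splines of 4 degrees of freedom (longest GENCODE transcript). Exonic overlaps were counted on GENCODE 29. Tools were Python 3.11.15 with scipy 1.17.1 and matplotlib 3.10.9, and R 4.3.3 with DESeq2 1.42.0, limma 3.58.1 and edgeR 4.0.16.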

Additional observations from a re-analysis of the deposited data

How the results depend on the processing

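Each of the 10 genes kept its direction and passed the test in all 16 other settings. Their median log2 fold change (0.93) was 1.04 with library size alone, 1.02 on log2(FPKM + 0.1), 1.12 on log2(TPM + 1), 1.04 with a filter at 5 FPKM, 0.93 with the replicate block and 0.91 to 0.96 with 1 sample left out, beside a median of all genes of 0.13 with library size alone and 0.23 on log2(TPM + 1). Between 4 and 6 of them were past 2-fold. The 7 lists had 38 genes higher and 17 lower on log2(TPM + 1). Over all genes tested, a filter at 5 FPKM, which tests fewer genes, gave 2630 higher, 2602 lower and 166 past 2-fold, against 469 past 2-fold in the reported fit, 172 on log2(FPKM + 1) and 786 with no filter. The sign of PGD (-0.05) turned to 0.059 with library size alone, 0.053 on log2(FPKM + 1), 0.054 on log2(FPKM + 0.1), 0.18 on log2(TPM + 1), 0.057 with the filter at 5 FPKM and 0.092 without GC and length trends. SLC25A1 turned to -0.0043 with DESeq2, -0.0042 with no filter and ranged from -0.028 to 0.043 with 1 sample left out, and passed as higher in 6 settings: 0.12 with library size alone, 0.11 on log2(FPKM + 1), on log2(FPKM + 0.1) and with the filter at 5 FPKM, and 0.24 on log2(TPM + 1) and without GC and length trends. AASDHPPT (-0.050) and CYB5B (-0.11) turned without GC and length trends. The log2 ratio of ACSL3 to FASN ranged from -0.058 to 0.12 with 1 sample left out. The ratios were not recomputed without GC and length trends. In that setting the log2 fold changes were 1.69 for FASN, 1.14 for ACSL3 and 1.27 for SCD. The cause of these changes was not tested. Of 633 other values of named genes, 595 kept direction and side of the threshold, 21 no longer passed, 6 passed newly (all of them SLC25A1) and 11 turned, and 2 calls were lost when single samples were left out: AASDHPPT without PBS replicate 2 (0.26), PBS replicate 3 (0.24) or rhSema3C replicate 2 (0.17), and GGT7 (0.097 to 0.13) without PBS replicate 1, 2 or 3 or rhSema3C replicate 1 or 3. The replicate block ended no call of a named gene but that of GGT7. No molecular identifiers or strand setting are known for these counts, 3 samples a group set the precision, and a sample left out leaves 2 in its group.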
